A study of Arabidopsis thaliana with 6 samples.

Results

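The small subunits of Rubisco and the enzymes that act with it in the Calvin cycle were followed in *naa20* and wildtype seedlings grown on the reductant dithiothreitol (DTT). The 10 genes were taken by their locus from the 27827 probe sets of Affymetrix Arabidopsis Gene 1.0 ST arrays, and all 10 were measured. They are the small subunit genes *RBCS1A* (AT1G67090), *RBCS1B* (AT5G38430), *RBCS2B* (AT5G38420) and *RBCS3B* (AT5G38410), the Rubisco activase gene *RCA* (AT2G39730), *GAPA* (AT3G26650) and *GAPB* (AT1G42970) for the plastid glyceraldehyde-phosphate dehydrogenase, *HCEF1* (AT3G54050) for the plastid fructose-bisphosphatase, *SBPASE* (AT3G55800) for sedoheptulose-bisphosphatase and *PRK* (AT1G32060) for phosphoribulokinase. The study compared 3 arrays of *naa20* (naa20-1, SALK_027687), a tDNA insertion line of the catalytic subunit of the N-terminal acetyltransferase NatB, with 3 arrays of the Col-0 wildtype. Whole seedlings of both genotypes grew on 1×MS medium in short days and were 17 days old at harvest, after 15 days with 2 mM DTT. Each mutant value comes from this 1 insertion allele, and no array of untreated seedlings was used here, so all values compare genotypes on DTT. The labels describe pools of at least 10 seedlings, while a legend of the study speaks of individual plants. That legend also states that the 3 samples of each condition were selected by integrity and purity of the RNA. A further passage of the methods keeps seeds of *naa20*, and not of wildtype, on control medium before the transfer, because the mutant germinates late. The onset of DTT exposure is therefore uncertain and may differ between the genotypes. Because it is not known what the arrays of a genotype share, p-values measure only the spread between these arrays.

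In the Calvin cycle, chloroplasts bind carbon dioxide to ribulose bisphosphate, reduce the product with the energy of light and regenerate the acceptor. Rubisco, the enzyme of the first step, is built from large subunits encoded in the plastid and small subunits encoded by a nuclear gene family, and Rubisco activase frees its active site of inhibitory sugar phosphates. Plastid glyceraldehyde-phosphate dehydrogenase, fructose-bisphosphatase, sedoheptulose-bisphosphatase and phosphoribulokinase are switched on in the light when thioredoxins reduce their disulfide bonds, the kind of bond that DTT also reduces.

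On DTT, 9 of the 10 genes had a lower signal in *naa20* than in wildtype at an adjusted p under 0.05 in limma, and the tenth, *RBCS1A*, had the same signal on every array. The count was 6 without wildtype array 1 or 2. Across all probe sets 17.4% were lower by the same criterion, and 30% of the 200 with the highest mean signals. At least a 2-fold lower signal was reached by 3 of the 10 genes, against 4.97% of all probe sets, and these were *RBCS1B*, *RBCS2B* and *RBCS3B*. In the 9 lower genes no array of *naa20* reached any wildtype array, as in 24.1% of all probe sets. None of the 10 was higher in *naa20* at an adjusted p under 0.05, against 16.6% of all probe sets (4.95% with at least 2-fold, and 23.4% with all mutant arrays above). In either direction 9 of the 10 genes and 33.9% of probe sets passed, and a lower difference of any size was found in 9 of 10 genes and 50.4% of probe sets. With arrays centred on 8 reference genes 6470 probe sets were lower and 3387 higher in *naa20*, in place of 4836 and 4611. Before centring, 2 of these 8 reference genes were themselves higher in *naa20* at an adjusted p under 0.05 in limma, and 0 were lower. Their median log2 difference was 0.13, so centring on them shifts all other genes down in *naa20*. The median log2 difference was -0.76 over the 10 genes and -0.00 over all probe sets. These are signals of bulk seedling RNA, in which fewer green cells and less transcript in each of them cannot be told apart. The *NAA20* transcript itself had a log2 signal of 7.32 ± 0.30 in *naa20* and 8.69 ± 0.13 in wildtype (SD, n = 3 each), a difference of -1.38 on the log2 scale in limma (SE 0.16, adjusted p = 0.000689).

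**Figure D1:**
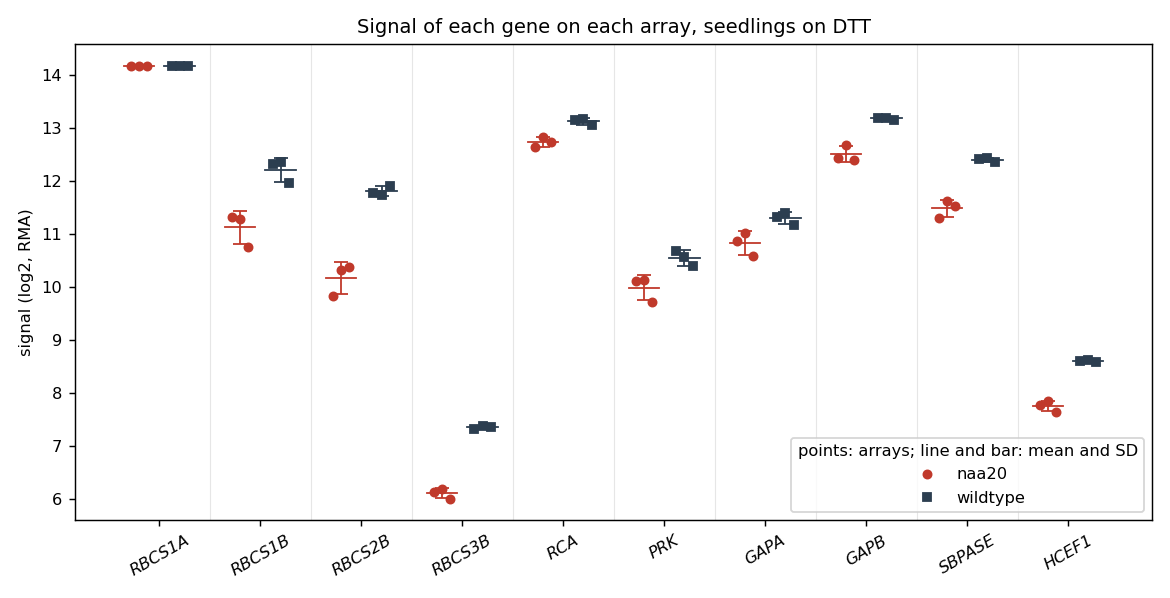
Log2 signals (RMA) of the 10 genes on each array, with *naa20* as red circles and wildtype as dark squares; lines and bars are means and SD of 3 arrays. *RBCS1A* sat at 14.18 on all 6 arrays, and for the other 9 genes the 3 *naa20* arrays lay below the 3 wildtype arrays.

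*RBCS2B* had the lowest difference of the group. Its log2 signal was 9.82, 10.32 and 10.37 on the *naa20* arrays, against 11.78, 11.74 and 11.91 on the wildtype arrays. The highest *naa20* array was thus 1.37 below the lowest wildtype array. The log2 difference was -1.64 (SE 0.16, 95% interval -2.01 to -1.27, adjusted p = 0.000298 from limma), a signal 67.9% lower in *naa20*. The first *naa20* array was the lowest, and the wildtype arrays lay closer together than the mutant arrays. *RBCS3B* had 6.13, 6.19 and 6.01 in *naa20*, against 7.32, 7.38 and 7.37 in wildtype. The arrays of each genotype lay close together, 1.13 apart from those of the other genotype, and the log2 difference was -1.24 (SE 0.09, 95% interval -1.45 to -1.04, adjusted p = 9.38e-05 from limma). *RBCS3B* was the dimmest of the 10 genes. It ranked between 13688 and 14235 on the *naa20* arrays, near the median signal of 6.12 over all probe sets. *RBCS1B* had 11.33, 11.29 and 10.76 in *naa20*, against 12.33, 12.35 and 11.96 in wildtype. Here array 3 was the lowest in both genotypes, and the log2 difference was -1.09 (SE 0.18, 95% interval -1.52 to -0.65, adjusted p = 0.00366 from limma). These 3 genes stand next to each other among the protein-coding genes of chromosome 5 in the TAIR10.1 annotation of RefSeq, while *RBCS1A* is on chromosome 1. All 4 encode highly similar small subunits, so probes could share signal between copies and the value of a single copy is uncertain.

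*RBCS1A* could not be compared in the same way. Quantile normalization gives the arrays 1 common set of sorted signals, so the signal of a probe set is set by its rank on the array. The *RBCS1A* probe set held rank 4 from the top on all 6 arrays, and its log2 signal was therefore 14.18 on each of them. In the whole table only 4 probe sets had the same signal on all arrays, and the other 3 were those that rank above *RBCS1A*. The signal at the rank above was 14.39 and that at the rank below 14.10, so any difference that leaves the gene between its neighbours is invisible in these values. The log2 difference of 0.00 is hence a property of the rank and is no measure of whether the *RBCS1A* transcript differed between genotypes.

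**Figure D2:**
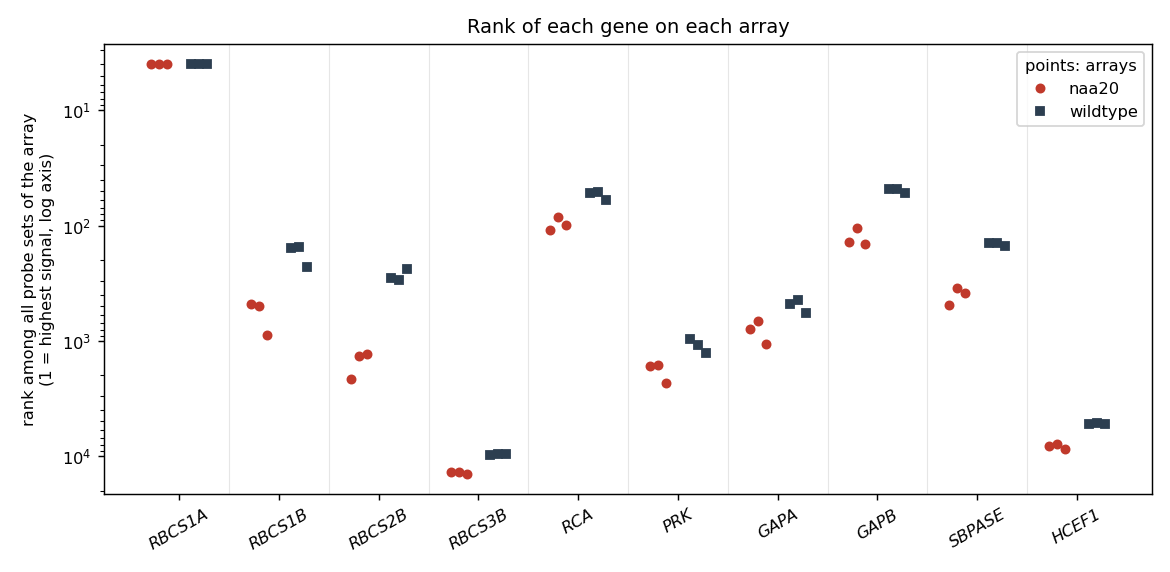
Rank of each of the 10 genes among the 27827 probe sets of each array (log axis, 1 is the highest signal), with *naa20* as red circles and wildtype as dark squares. *RBCS1A* held rank 4 throughout, while *RBCS2B* ranked between 1302 and 2135 in *naa20* and between 240 and 297 in wildtype.

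Whether the small subunit genes differed from each other in their response was asked with the difference of 2 genes on each array, for 5 pairs of genes including 2 pairs of enzymes. The drop of *RBCS2B* in *naa20* exceeded that of *RBCS3B* by 0.40 on the log2 scale (SE 0.20, 95% interval -0.17 to 0.96). The genotypes did not overlap in the deposited values but did after cyclic loess, and the difference was 0.21 without *naa20* array 1. The exact two-sided permutation test gave p = 0.1 for this pair, the smallest value that 3 arrays against 3 allow, and 0.5 after Benjamini-Hochberg adjustment over the 5 pairs. Between *RBCS2B* and *RBCS1B* the difference was -0.55 (SE 0.37, 95% interval -1.58 to 0.47, exact permutation p = 0.3, adjusted p = 0.5), the arrays overlapped, and the value was between -0.84 and -0.28 with single arrays left out, lowest without *naa20* array 3 and highest without *naa20* array 1. Between *RBCS3B* and *RBCS1B* it was -0.15 (SE 0.19, 95% interval -0.69 to 0.38, exact permutation p = 0.5, adjusted p = 0.625), and -0.29 to -0.02 with single arrays left out, lowest without *naa20* array 3 and highest without wildtype array 3. The intervals are wide, so unequal drops of the 3 genes were not detectable and equal drops were not shown. Pairs with *RBCS1A* were not tested, since its signal was constant.

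Rubisco activase had the smallest difference among the 9 lower genes. *RCA* signals were 12.65, 12.83 and 12.73 in *naa20*, against 13.16, 13.17 and 13.06 in wildtype. The genotypes were separated by 0.23, and the log2 difference was -0.39 (SE 0.09, 95% interval -0.60 to -0.18, adjusted p = 0.0137 from limma), which is a signal 23.8% lower in *naa20*. *RCA* ranked between 84 and 110 on the *naa20* arrays and between 51 and 60 on the wildtype arrays. Without the first *naa20* array or either of the first 2 wildtype arrays, its adjusted p lay between 0.0523 and 0.0528 in limma.

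In the reduction step, both subunit genes of plastid glyceraldehyde-phosphate dehydrogenase were lower in *naa20*. *GAPB* had log2 signals of 12.44, 12.68 and 12.40 in *naa20*, against 13.20, 13.20 and 13.16 in wildtype. All wildtype arrays lay at least 0.48 above the mutant arrays, and the log2 difference was -0.68 (SE 0.10, 95% interval -0.92 to -0.44, adjusted p = 0.00209 from limma). *GAPA* had 10.88, 11.02 and 10.58 in *naa20*, against 11.33, 11.39 and 11.18 in wildtype. Its genotypes were only 0.16 apart, the smallest gap among the 9 genes, and the log2 difference was -0.47 (SE 0.13, 95% interval -0.79 to -0.16, adjusted p = 0.0297 from limma). The adjusted p of *GAPA* rose above the threshold, to between 0.0603 and 0.0971, in 4 of the 6 fits that left out an array, those without *naa20* array 1 or 3 and those without wildtype array 1 or 2. The drop of *GAPB* exceeded that of *GAPA* by 0.20 (95% interval of the difference -0.46 to 0.05), with overlapping arrays (exact permutation p = 0.2, adjusted p = 0.5). *GAPA2* (AT1G12900), the other gene for subunit A, differed by -0.95 on the log2 scale (SE 0.10, limma adjusted p = 0.000384).

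*SBPASE*, *HCEF1* and *PRK*, which act in the regeneration of the acceptor, were lower as well. The gene *SBPASE*, whose product removes a phosphate from sedoheptulose bisphosphate, had log2 signals of 11.31, 11.62 and 11.52 in *naa20*, against 12.41, 12.43 and 12.36 in wildtype. Its log2 difference was -0.91 (SE 0.10, 95% interval -1.16 to -0.67, adjusted p = 0.000611 from limma), a signal 46.9% lower in *naa20*. *HCEF1*, for the fructose-bisphosphatase of the plastid, had 7.78, 7.85 and 7.65 in *naa20*, against 8.61, 8.63 and 8.60 in wildtype. The wildtype arrays had an SD of 0.01, the smallest among the 9 genes, and the log2 difference was -0.85 (SE 0.09, 95% interval -1.06 to -0.64, adjusted p = 0.00042 from limma). The differences of these phosphatase genes lay 0.06 apart (95% interval -0.22 to 0.34, exact permutation p = 0.8, adjusted p = 0.8). *PRK*, whose product makes ribulose bisphosphate for Rubisco, had 10.11, 10.14 and 9.72 in *naa20*, against 10.69, 10.56 and 10.39 in wildtype. Array 3 was the lowest of each genotype, and the log2 difference was -0.56 (SE 0.14, 95% interval -0.89 to -0.23, adjusted p = 0.0202 from limma). Leaving out wildtype array 1 or 2 brought the adjusted p of *PRK* to 0.0719 or 0.0619 in limma.

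The arrays of a genotype differed from each other in a way the genes shared. Of the 9 genes with a varying signal, 6 were lowest on *naa20* array 3 and 7 on wildtype array 3, where 38% and 39.3% of all probe sets were lowest. On *naa20* array 2 the highest signal was found for 7 of the 9 genes and 34.1% of all probe sets, and on wildtype array 2 for 6 of the 9 genes and 31.8% of all probe sets. In all 9 genes the SD was larger in *naa20*, between 0.09 and 0.32, than in wildtype, between 0.01 and 0.22, while 52.2% of all probe sets had the larger SD in *naa20*.

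Further enzymes of the cycle were taken from a list of 12 genes, and some isoforms of the same enzyme differed in direction. In *naa20* 8 of the 12 were lower and 2 higher at an adjusted p under 0.05, with a median log2 difference of -0.34. The count of lower genes was 6 with the replicate block and after cyclic loess, and 6 to 7 with single arrays left out. Among the plastid aldolases, *FBA1* (-0.81, adjusted p = 0.000964 from limma) and *FBA2* (-0.29, adjusted p = 0.0353) fell, whereas *FBA3* rose by 0.57 (SE 0.09, adjusted p = 0.00229). Of the transketolases, which move carbon units between sugar phosphates, *TKL1* fell by 0.30 (adjusted p = 0.0348 from limma) and *TKL2* rose by 1.00 (SE 0.13, adjusted p = 0.000949), the highest difference of the list. With the replicate block the adjusted p was 0.0652 for *FBA2* and 0.0538 for *TKL1*, and both also missed the threshold after cyclic loess. Leaving out single arrays gave *FBA2* an adjusted p over 0.05 in all 6 fits, and *TKL1* in all but that without *naa20* array 2. The lowest was AT5G64380, listed as a plastid fructose-bisphosphatase isoform, with -1.10 (SE 0.11, adjusted p = 0.000312 from limma). *PGK1*, a plastid phosphoglycerate kinase, and *RPE*, the ribulose-phosphate epimerase, fell by 0.39 and 0.47 (adjusted p = 0.00993 and 0.00677 from limma). AT1G56190, the other gene listed as a plastid phosphoglycerate kinase, had -0.01 and did not pass (adjusted p = 0.939 from limma). For *TIM*, the plastid triosephosphate isomerase, limma gave 0.14 (adjusted p = 0.233). The gene of the Rubisco large subunit was not analysed here.

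**Figure D3:**
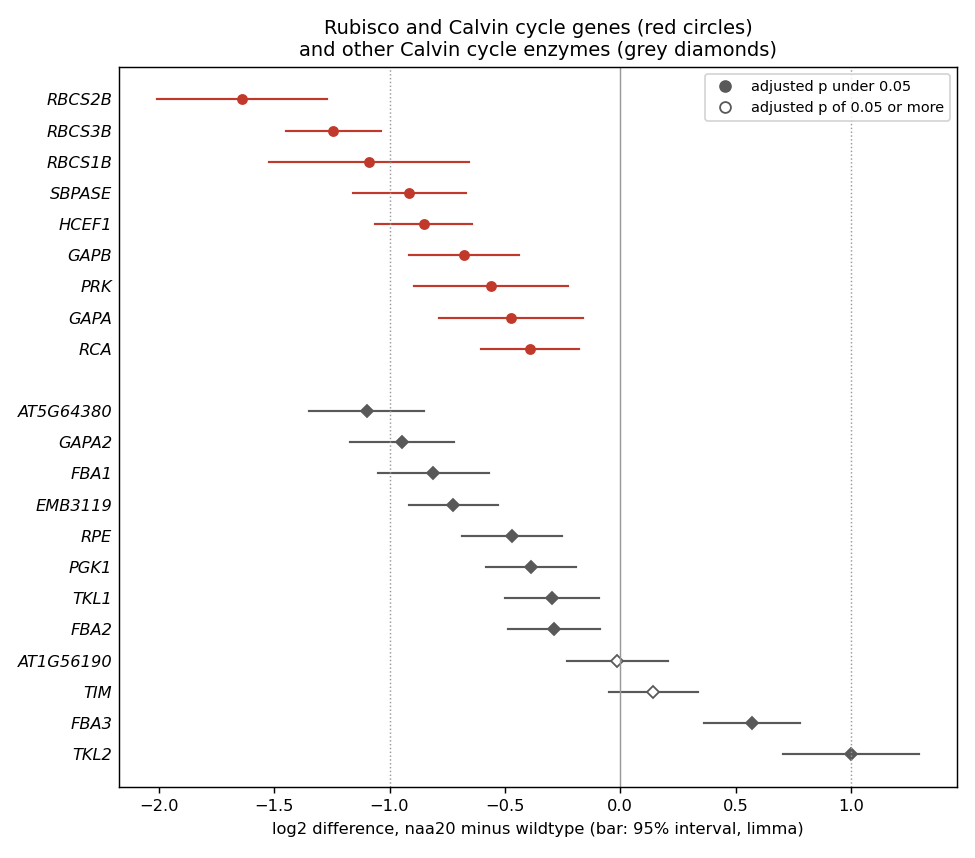
Log2 differences, *naa20* minus wildtype, of the 9 genes with a varying signal (red circles) and of 12 other Calvin cycle genes (grey diamonds), with 95% intervals from limma; filled symbols have an adjusted p under 0.05 and dotted lines mark 2-fold. The red values run between -1.64 in *RBCS2B* and -0.39 in *RCA*, while *FBA3* and *TKL2* lie to the right of 0.

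Genes that assemble or regulate these enzymes were mostly lower too. The CP12 proteins, small scaffolds that hold glyceraldehyde-phosphate dehydrogenase and phosphoribulokinase inactive in the dark, had log2 differences of -0.47 in *CP12-1* (adjusted p = 0.0484 from limma), -0.998 in *CP12-2* (adjusted p = 0.000635) and 0.14 in *CP12-3* (adjusted p = 0.303). After cyclic loess, and without any single array other than the first *naa20* array, *CP12-1* missed the threshold. Among 10 genes listed for Rubisco assembly 7 were lower and 0 higher, with a median of -0.64, from the chaperonin gene *CPN60B* at -1.33 (SE 0.10, adjusted p = 0.0001 from limma) to *RBCX2* at -0.07 (adjusted p = 0.648). With single arrays left out, 5 to 7 of these assembly genes were lower. Among 10 genes of the thioredoxin system that activates the cycle in the light 5 were lower and 0 higher, with a median of -0.39. *TRXF2*, a thioredoxin f, was lowest there with -0.90 (SE 0.13, adjusted p = 0.00152 from limma), and *FTRA2* highest with 0.14 (adjusted p = 0.491). With each array centred on 8 reference genes, 8 of these 10 thioredoxin genes were lower.

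Pathways that start from products of the cycle were compared in the same fit. Of 12 measured genes of photorespiration, which recovers the product of the oxygenase reaction of Rubisco, 11 were lower and 0 higher in *naa20*, with a median log2 difference of -0.68. They ranged from *LrgB* (AT1G32080) at -1.24 (SE 0.08, adjusted p = 8.21e-05 from limma) to the aminotransferase gene *GGT1* at -0.21 (adjusted p = 0.218). In a list of 7 genes for starch, sucrose and triose export, 4 were lower and 1 higher. *APL1*, a large subunit of ADP-glucose pyrophosphorylase in starch synthesis, was lowest with -1.41 (SE 0.08, adjusted p = 4.3e-05 from limma). *SPS1F*, a sucrose-phosphate synthase, was highest with 1.04 (SE 0.12, adjusted p = 0.000704 from limma). *TPT*, the translocator that exports triose phosphates, had 13.66 ± 0.01 in *naa20* and 13.59 ± 0.00 in wildtype (SD, n = 3 each), values near the top of the range where signals hang on a few ranks.

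Cytosolic glycolysis uses isoforms of several of these enzymes, and these were compared in the same fit. Of 9 such genes 2 were lower and 2 higher in *naa20*, near the 17.4% and 16.6% of all probe sets, with a median log2 difference of 0.23. *GAPC1*, a cytosolic glyceraldehyde-phosphate dehydrogenase, rose by 0.32 (SE 0.09, adjusted p = 0.0236 from limma), whereas its plastid counterparts *GAPA*, *GAPA2* and *GAPB* fell. *GAPC2*, the other cytosolic gene listed for this enzyme, had 0.23 and did not pass (adjusted p = 0.0934 from limma). The rise of *GAPC1* was about that of *AP2M*, the highest of the 8 reference genes, with 0.32 (adjusted p = 0.0211 from limma). The aldolase genes *FBA6* with 0.88 (adjusted p = 0.000424) and *FBA5* with -2.10 (SE 0.30, adjusted p = 0.0016 from limma) were the extremes of the cytosolic genes. *FBA5* had a log2 signal of 4.37 ± 0.60 in *naa20* and 6.48 ± 0.30 in wildtype (SD, n = 3 each). Its *naa20* signals lay below the median of 6.12 over all probe sets. The count of higher genes in this list was 5 with trend and robust moderation. It was 1 with arrays centred on reference genes, and 1 without *naa20* array 1 or 2 or wildtype array 2 or 3.

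**Figure D4:**
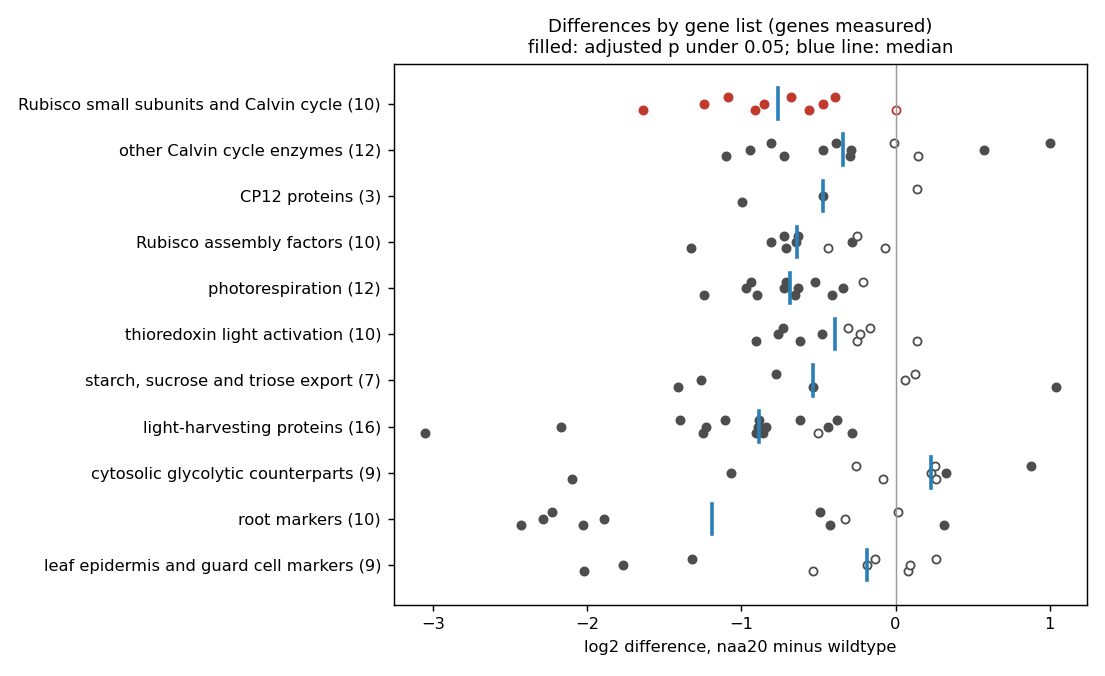
Log2 differences, *naa20* minus wildtype, of each measured gene by list, with filled symbols for an adjusted p under 0.05 in limma and a blue line at the median of the list. The medians lie at -0.76 for the Rubisco and Calvin cycle genes, -0.68 for photorespiration, -0.89 for light-harvesting proteins and 0.23 for cytosolic glycolysis.

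Markers of green cells, roots and the leaf surface were also set beside the genotype. Light-harvesting genes, which mark green cells, were lower for 15 of 16 genes, and their mean log2 signal was between 9.83 and 10.02 on the *naa20* arrays, against 10.94 to 10.96 on the wildtype arrays. *LHB1B1* was lowest with -3.05 and *LHCA4* highest with -0.29. Root markers were lower for 7 of 10 and higher for 1 (*PYK10*), with means of 6.57 to 6.94 in *naa20*, against 7.84 to 7.97 in wildtype, and log2 differences between -2.43 in *CASP1*, a Casparian strip gene, and 0.31 in *PYK10*. The higher call of *PYK10* was lost with arrays centred on reference genes and in 5 of the 6 fits without single arrays, all but that without wildtype array 2. Of 9 markers of leaf epidermis, guard cells and the stomatal lineage 3 were lower, the trichome gene *GL1* and the stomatal lineage genes *TMM* and *SPCH*, and 6 did not pass in either direction, with means of 7.61 to 7.92 in *naa20*, against 8.27 to 8.59 in wildtype. *SPCH*, a regulator of the stomatal lineage, was lowest with -2.02, and *CER6*, a wax synthesis gene, had 0.26 (adjusted p = 0.349 from limma). The guard cell genes *MYB60*, *KAT1* and *FAMA* had log2 differences of 0.08, -0.13 and 0.09 (adjusted p = 0.572, 0.577 and 0.637 from limma), and *CER1* and *FDH* had -0.54 and -0.18 (adjusted p = 0.360 and 0.186). The part of tissue composition in the lower Rubisco and Calvin cycle signals was not tested.

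The probe sets with the pattern most like the mean of the 10 genes were found by the root mean square distance over the 6 arrays between deviations from each mean. The nearest 5 were AT4G26370 (distance 0.0151 on the log2 scale), AT4G33500 (0.0253), *SCY1* (AT2G18710, 0.0259), AT5G51110 (0.0267) and AT2G07764 (0.0285), with log2 differences between -0.81 and -0.76. *SCY1* encodes a SecY homologue, and AT5G51110 is also in the list for Rubisco assembly. Among the 10 genes themselves *HCEF1* was nearest to their mean (0.0474) and *RBCS2B* farthest (0.471).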

How the data were processed

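The deposited table holds log2 signals for 27827 probe sets and 6 Affymetrix arrays. The authors made them with RMA background correction, quantile normalization and custom CDF 16, which follows TAIR genes. Once sorted, every array has identical values, between 1.75 and 14.6 with a median of 6.12, so a signal follows from a rank. Precision is limited by the array number. Arrays correlated at 0.991 to 0.996 within and 0.955 to 0.963 between genotypes.

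Signals were used as deposited. A linear model of genotype was fitted to the 3 *naa20* and 3 wildtype arrays (limma 3.58.1, R 4.3.3), and p-values were adjusted by Benjamini-Hochberg across the whole table, with a threshold of 0.05. The methods also ask for a 2-fold difference, which was counted separately. Pairs of genes were compared by exact permutation tests. Figures were drawn with matplotlib 3.10.9. Differences are *naa20* minus wildtype.

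The genes and lists were chosen with earlier results of these data known. Named are the 10 genes, the extremes of each list, every gene of a list of 5 or fewer, *NAA20* and the 5 most similar probe sets. *GAPA2*, *FBA1*, *FBA2*, *FBA3*, *TKL1*, *PGK1*, AT1G56190, *RPE*, *TIM*, *TPT*, *GAPC1*, *GAPC2*, *GL1*, *TMM*, *MYB60*, *KAT1*, *FAMA*, *CER1* and *FDH* were added after their values were seen. A RefSeq table paired 84 of the 107 other measured genes with their listed name, and the rest appear by its symbol or by locus. Same-numbered arrays of the genotypes deviated together (correlations of 0.176, 0.19 and 0.385 across probe sets), so by a limit of 0.1 the numbers were taken as pairs. *naa20* array 1 with wildtype array 2 (0.174) and *naa20* array 2 with wildtype array 1 (0.145) also passed that limit, so numbers 1 and 2 are hardly told apart. The source of the pairing is not stated. The pairing entered as a block in an alternative.

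The alternatives were trend and robust moderation, array weights, leaving out the 25% of lowest signals, cyclic loess, centring on 8 reference genes, the block, and leaving out each array. The fit was tested on simulated data with known changes.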

Additional observations from a re-analysis of the deposited data

How the results depend on the processing

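The count of lower genes stayed at 9 of 10 with trend and robust moderation, array weights, the low-signal filter, cyclic loess, centring on reference genes and the replicate block, and was 6 to 9 with each array left out. It was 6 without wildtype array 1 or 2, where *RCA*, *GAPA* and *PRK* missed the threshold. The count of genes at least 2-fold lower was 2 to 3 with each array left out. After cyclic loess the count without overlap was 9. Leaving out an array could not change that count, since arrays that do not overlap stay apart when 1 is removed and *RBCS1A* is constant. Centring on reference genes gave 4 genes at least 2-fold lower and 10 without overlap. The tenth was *RBCS1A*, whose constant signal only took on the shift of each array (log2 difference -0.12). Its separation is thus no measure of the transcript. The replicate block gave 9 lower and 3 at least 2-fold lower genes, as without the pairing, and changed no call among the 10 genes. With the block 6 of 12 other Calvin cycle enzymes were lower in place of 8, 6 of 10 assembly genes in place of 7, 14 of 16 light-harvesting genes in place of 15, and 4 of 9 epidermal markers in place of 3, and no other list count changed. The median log2 difference of the 10 genes lay between -0.83 and -0.71 with single arrays left out. It was -0.85 without *RBCS1A*, a setting chosen after seeing the data. Centring on reference genes lowered the median of all probe sets to -0.12, the same shift as that of *RBCS1A*. The difference between *HCEF1* and *SBPASE* was between -0.0343 and 0.136 with single arrays left out, and turned negative (-0.0343) without the first *naa20* array. Of 240 counts for lists under alternatives, 20 moved by over 1.5 times or to or from 0. The other 220 did not, and these include smaller shifts and counts that stayed at 0. The cause was not tested. Signals near the top of the range rest on few ranks, which limits *RBCS1A* most.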
